A study of Mus musculus with 14 samples.

Results

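Heavy ends are the mRNA 3' ends whose reads sat mostly in the heaviest fraction of a polysome gradient from mouse 3T3 cells. An end was counted as heavy when it had at least 100 raw counts over the 6 fractions and when fraction 12 held at least 50% of its counts, after each fraction was divided by the factor given for it in the header. Of 33590 annotated poly(A) sites, the positions where mRNAs are cut and given their tail, 16283 had enough counts, and 2101 of these were heavy (12.9%, Wilson 95% interval 12.4 to 13.4). The other 14182 are called other ends. Heavy ends lay in 1425 of the 10209 loci with an end of sufficient counts, a locus being a run of ends on 1 strand with each within 2000 nt of the next.

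The study read mRNA 3' ends by 2P-Seq, which sequences inward from the poly(A) tail, in 3T3 cells, an established mouse fibroblast line grown in bulk culture. Its 6 decay libraries were 2 untreated controls and single libraries from cells given 10 µg/ml actinomycin D, a blocker of transcription, for 1, 2, 4 or 8 h. Its other 6 libraries were the fractions of 1 sucrose gradient, named in the deposited table by a ribosome number of 0, 1, 2.5, 4.5, 7.5 and 12. The labels name no transgene or mutation for these 12 libraries, and no drug for the gradient cells. Since the cells were measured in bulk, fewer cells with a transcript and fewer copies per cell cannot be told apart. The fibroblast label could not be set against marker genes, because the file pairs no site with a gene name.

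Ribosomes load onto an mRNA one after another, so several can translate it at once, and such a polysome sediments faster through sucrose the more ribosomes it carries. The number of ribosomes on an mRNA depends on how often translation starts, how fast ribosomes move and how long the coding region is. A short coding region has little room for ribosomes, and the heaviest fractions are known to be rich in mRNAs with long coding regions. A gene can use several poly(A) sites, which often leave the coding region the same and change the length of the 3' untranslated region, a place where proteins and microRNAs bind. Coding lengths and gene names were not used here, since positions are in the mm9 build and the annotation at hand is of a later build.

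The fraction libraries held 1663346, 4173629, 6668635, 9200657, 10420511 and 11575417 counts for fractions 0, 1, 2.5, 4.5, 7.5 and 12. The controls held 5843403 and 6433503 counts, and the libraries at 1, 2, 4 and 8 h held 6111232, 5858649, 5048797 and 4045420. Whether the 2 controls were grown apart is not stated in the labels, each time point has 1 library and the gradient was run once, so p-values below measure only the spread of these libraries, which may be technical. Counting standard errors and counting intervals of a share cover counting error only, and may be too small, as PCR reads are not independent molecules. Wilson intervals are for a proportion of ends, loci or pairings. They take ends as independent although ends of a locus share a gene. Pairings are taken so too, although a pair of heavy ends enters them from each side.

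Heavy ends had a profile that was low up to fraction 7.5 and high in fraction 12 alone. Their median shares were 3.93%, 4.58%, 11.1%, 8.58%, 11.8% and 56.5% in fractions 0, 1, 2.5, 4.5, 7.5 and 12. Other ends were spread out, with medians of 3.88%, 7.00%, 20.2%, 19.4%, 19.1% and 21.7%. The medians of fraction 0, named for no ribosome, were close in both groups, and those of all heavier fractions differed. Members were chosen by these values, the gradient counts, so the profile is a description, with no test. The share of heavy ends in fraction 12 reached 77.8%, and its quartiles were 52.7% and 61.1%. The authors' deposited table gives ribosomes per mRNA, which equalled the weighted mean of the fraction names for 2101 of 2101 heavy ends within 1e-06. By the authors' deposited table its median was 8.58 for heavy ends, with a range of 7.36 to 10.3, and 6.07 for other ends.

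**Figure D1:**
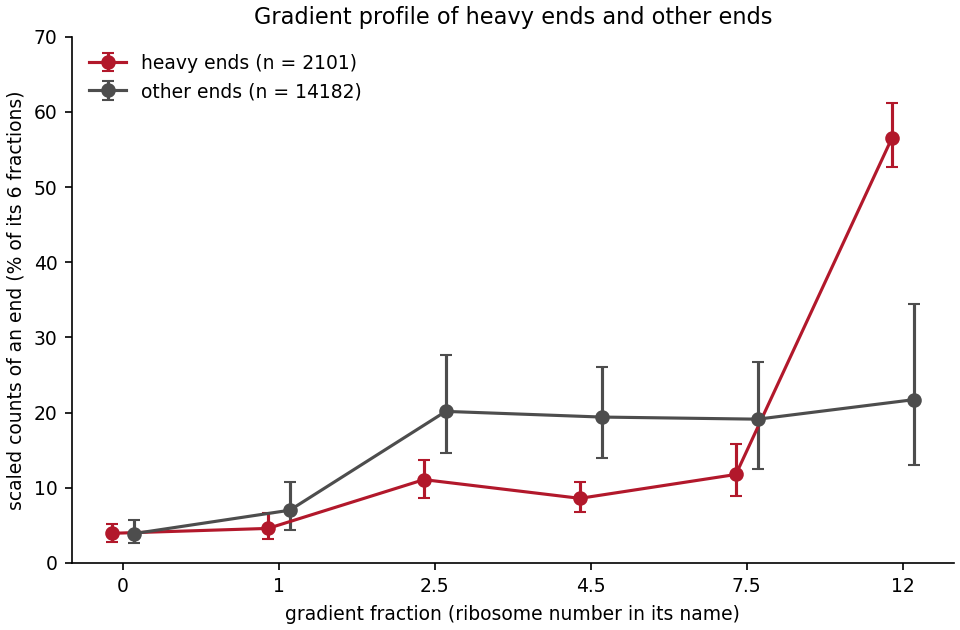
Share of an end's scaled counts in each gradient fraction (y axis, percent) for heavy ends and other ends; points are medians, bars reach from the lower to the upper quartile, and fractions run from light to heavy. Heavy ends stay at medians of 3.93% to 11.8% up to fraction 7.5 and reach 56.5% in fraction 12, where other ends have 21.7%.

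Heavy ends did not climb evenly towards fraction 12. Shares rose through all 6 fractions for only 153 of the 2101 (7.28%). The second highest share was in fraction 7.5 for 1027 ends (48.9%) and in fraction 2.5 for 835 (39.7%), with 193 in fraction 4.5, 31 in fraction 1 and 15 in fraction 0. Ends with the second peak in fraction 7.5 had median shares of 9.02%, 8.26% and 15.9% in fractions 2.5, 4.5 and 7.5. Ends with the second peak in fraction 2.5 had 14.3%, 8.39% and 8.97% in the same fractions. Both kinds had about the same median in fraction 12, 56.8% and 56.4%. The median half-life in the authors' deposited table was 3.75 h for the first kind and 3.22 h for the second. The place of the second peak depended on the scaling: with raw counts it was fraction 7.5 for 1641 of the 2101, and with counts scaled to library totals (CPM, counts per 1e+06 counts) it was fraction 0 for 770 and fraction 7.5 for 754.

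The cut at 50% fell in a continuous distribution. The 3 heavy ends nearest to it had shares from the cut itself to 50.011%, and the 3 other ends nearest to it had 49.973% to 49.985%. The counting standard error of the share had a median of 1.76 percentage points over heavy ends, and the 95% counting interval included the cut for 747 heavy ends (35.6%) and for 891 other ends. The scaling weighed more. With library totals in place of the header factors, which gives every fraction equal weight, 462 ends passed, all of them among the 2101. The median share in fraction 12 was then 44.6% for heavy ends and 15.7% for other ends. Fraction 12 had the highest CPM of the 6 for 2096 of 2101 heavy ends and for 3668 of 14182 other ends (25.9%).

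The 6 ends with the highest shares among those with at least 300 fraction counts had 75.5% to 77.8% of their counts in fraction 12. The highest was an end on chromosome 7 at 16535266 (minus strand, mm9, as all positions here). Its shares were 2.51%, 2.26%, 4.89%, 6.64%, 5.92% and 77.8% from fraction 0 to fraction 12, from 801 raw counts, with a counting standard error of 1.56 points. An end on chromosome X at 147417690 (minus strand) had the most counts of the 6, 4210, and shares of 1.95%, 2.17%, 7.15%, 6.05%, 7.19% and 75.5%. The other four lay on chromosome 19 at 46158950 (plus), chromosome 4 at 40683661 (minus), chromosome 15 at 102537209 (minus) and chromosome 10 at 59765346 (plus). After actinomycin D, 5 of these 6 were not called in either direction, as were 51.01% of all sites tested, and the end on chromosome 10 rose relative to the library (slope 0.29 ± 0.04 SE log2 per hour, edgeR adjusted p = 0.000302).

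Heavy ends belonged to the more abundant ends of the cells. Their mean control CPM had a median of 28.2 and quartiles of 8.96 and 80.6, against a median of 15.6 and quartiles of 5.82 and 43.8 for other ends. They supplied 18.1% and 18.5% of the counts of the controls, and were 12.9% of the ends with enough fraction counts. Other ends supplied 80.6% and 80.1%, so these 2 groups held nearly all control counts. Heavy ends were 6.25% of all sites, but sites with few fraction counts could not be members. In the fraction libraries they supplied 8.67%, 5.76%, 5.82%, 5.27%, 8.93% and 29.5% of the counts from fraction 0 to fraction 12. The median of the raw fraction counts was 840 for heavy ends and 647 for other ends. These fraction values rest on the gradient counts that the rule used, and fraction 12 was the deepest library. They are thus no separate measure of abundance. The share of heavy ends among ends with enough counts was 7.96% under 5 control CPM, 11.5% at 5 to 15, 12.2% at 15 to 50, 17.7% at 50 to 150 and 23.7% (Wilson 21.4 to 26.1) at 150 or more.

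The 8 heavy ends with the highest control CPM had a mean of 1701 to 3760 CPM in the controls. The most abundant was on chromosome 5 at 143664802 (minus strand), the only annotated end of its locus. Its gradient shares were 7.46%, 5.10%, 8.68%, 5.59%, 18.0% and 55.2% from fraction 0 to fraction 12, from 192372 raw counts. It had 3280 and 2879 TMM-scaled CPM in the controls, then 4845, 5274, 5641 and 7616 at 1, 2, 4 and 8 h of actinomycin D. TMM scaling sets each library against the bulk of its sites, so the end gained ground relative to them (slope 0.15 ± 0.04 SE log2 per hour, edgeR adjusted p = 0.0052). Every treated library lay above both controls for this end. The second, on chromosome 7 at 54110995 (plus strand), also stood alone in its locus, with 57.1% in fraction 12. It had 2269 and 2208 TMM-scaled CPM in the controls and 3459, 3874, 4424 and 5250 at 1, 2, 4 and 8 h, again with no overlap between treated and control libraries.

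Of these 8 abundant ends, 7 rose relative to the library, against 20.8% of all sites tested. Rises were frequent at this abundance, in 50% of heavy and 58.6% of other ends tested with 150 control CPM or more. The end that was not called, on chromosome 17 at 35971751 (minus strand), had 1578 and 1345 TMM-scaled CPM in the controls and 1665, 2325, 1754 and 1533 at 1, 2, 4 and 8 h (slope of 0.0020 ± 0.04 SE, with an edgeR adjusted p of 0.971). The steepest of the rises was that of chromosome 9 at 69339592 (plus strand), with 1852 and 1430 TMM-scaled CPM in the controls and 1917, 4059, 5239 and 6353 at 1, 2, 4 and 8 h (slope of 0.26 ± 0.05 SE, with an edgeR adjusted p of 0.00138). With the header factors, no rise among the 7 passed and 5 of the 7 slopes turned slightly negative. With them, the median slope of all 16913 tested sites moved by -0.15 log2 per hour, so a rise here is relative to the other sites of a library and does not give the absolute level. The end on chromosome 3 at 88125687 (plus strand) missed the threshold without the 1 h library, the 4 h library or either control (adjusted p of 0.060 to 0.101), and the end on chromosome 6 at 4491008 (plus strand) missed it without the 8 h library (adjusted p of 0.187).

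Over the actinomycin D course heavy ends were lost somewhat more slowly than other ends by the median over ends, but not by summed counts. With the header factors, and taken over the 2050 heavy ends with at least 60 counts in the decay libraries and 20 in the controls, the median level was 104%, 85.0%, 67.5% and 45.2% of the control mean at 1, 2, 4 and 8 h. Over 13144 other ends it was 95.7%, 75.1%, 55.7% and 34.1%. The quartiles at 8 h were 18.8% and 82.6% for heavy ends and 11.6% and 77.5% for other ends, so most of the range was shared. Heavy ends with a share of at least 65% in fraction 12 kept a median of 74.98% at 8 h, and those with 50 to 55% kept 34.1%, the same median as other ends.

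**Figure D2:**
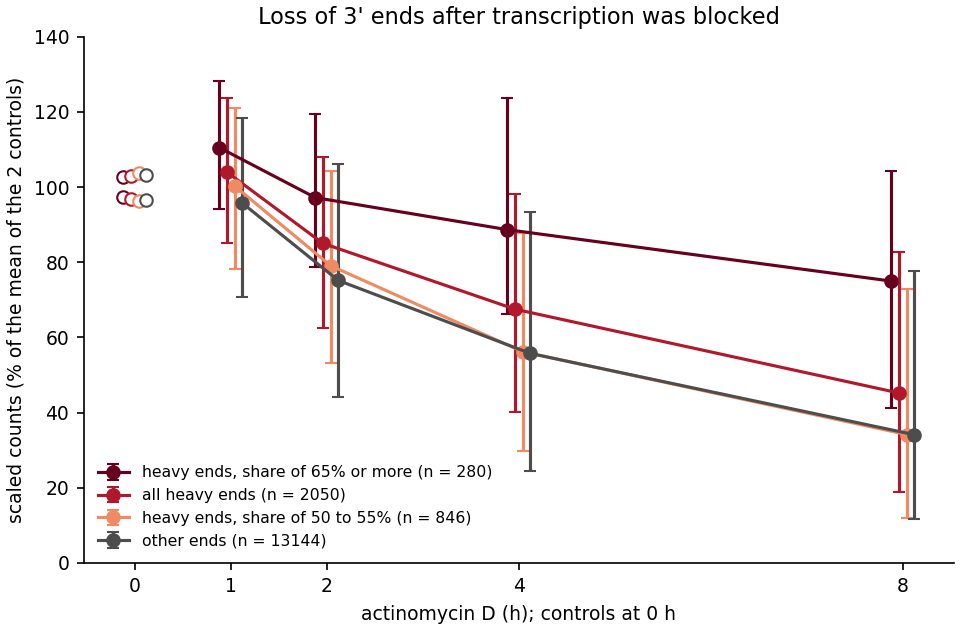
Scaled counts after actinomycin D as percent of the mean of the 2 controls (y axis) against hours of treatment (x axis). Filled points are medians over ends, bars are quartiles, open points at 0 h are the medians of each control; at 8 h the medians are 74.98% for heavy ends with a share of 65% or more, 45.2% for all heavy ends, 34.1% for those of 50 to 55% and 34.1% for other ends.

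The same order stood in the authors' deposited half-lives, which come from these 6 decay libraries. For ends past the authors' filter, the median half-life in the authors' deposited table was 3.44 h (quartiles 2.23 and 5.34, 2036 heavy ends) against 2.83 h (quartiles 1.54 and 5.01, 13401 other ends). Within heavy ends it went up with the share in fraction 12: 2.88 h at 50 to 55%, 3.32 h at 55 to 60%, 3.84 h at 60 to 65% and 4.91 h at 65% or more. Among other ends the order was not a line. Their median was 5.35 h for shares under 10%, 2.97 h at 10 to 20%, 2.33 h at 20 to 30%, 2.29 h at 30 to 40% and 2.55 h at 40 to 50%. The longest medians were in the classes with the lowest share in fraction 12, under 10%, and the highest, 65% or more.

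The difference in half-life was not the same at all levels of abundance. Median half-lives of heavy and other ends were 3.48 and 2.76 h under 5 control CPM, 3.28 and 2.42 h at 5 to 15 CPM, and 2.94 and 2.62 h at 15 to 50 CPM. At 50 to 150 CPM they were 3.42 and 3.37 h, and at 150 CPM or more 4.74 and 5.50 h, heavy ends being the lower there. Median control CPM also went up with the share within heavy ends, at 21.9, 28.4, 33.2 and 43.0 for the same 4 classes of share. The part of abundance in the longer half-lives was not tested beyond these strata, and ends are not replicates, so no test was made of the medians.

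**Figure D3:**
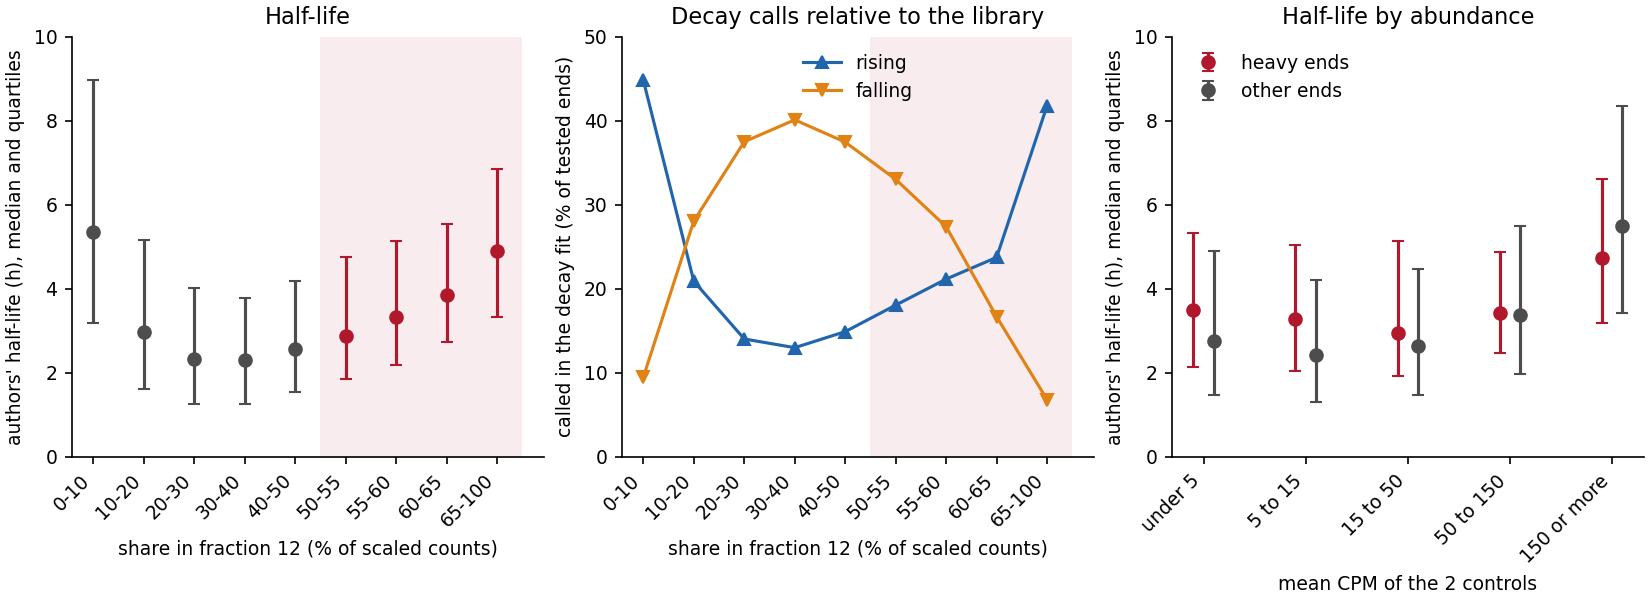
Left, half-life in the authors' deposited table by share in fraction 12, as medians with quartiles, heavy ends on the shaded ground; centre, percent of tested ends called rising or falling after actinomycin D in the same classes; right, the half-life of heavy ends and other ends by control CPM. Half-life is 5.35 h under 10%, 2.29 h at 30 to 40% and 4.91 h at 65% or more, and heavy ends have the longer median in the 4 lower classes of abundance but not at 150 CPM or more.

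The test of decay was a slope on hours for each site, fitted over all 16913 sites with at least 60 counts in the 6 decay libraries. Of the 2101 heavy ends 2059 were tested. Of these 516 (25.1%) fell and 476 (23.1%) rose relative to the library, against backgrounds of 28.2% falling and 20.8% rising over all sites tested (30.3% and 20.8% over the tested sites with at least 100 fraction counts), and 1067 (51.8%) were not called (edgeR quasi-likelihood F test, adjusted p under 0.05). Both shares are near the background. Among the other ends tested, 31.1% fell and 20.4% rose. The median slope of heavy ends was 0.0044 log2 per hour, against -0.05 for other ends and -0.03 for all sites. This lead of 0.03 over all sites was the same with the header factors, where both medians were lower. A change of scaling moves all slopes by about the same amount, so this sameness was fixed in advance and is no added support. Falling heavy ends had a median slope of -0.28, and falling other ends -0.36.

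Decay calls varied with the share in fraction 12 among heavy ends. At 50 to 55%, 33.0% of the tested heavy ends fell and 18.0% rose, and at 55 to 60% these were 27.4% and 21.1%. At 60 to 65%, 16.7% fell and 23.7% rose. At 65% or more, 19 of 280 fell (6.79%) and 117 rose (41.8%), against the same backgrounds of 28.2% and 20.8%. Ends with under 10% in fraction 12 were alike in this, with 9.48% falling and 44.8% rising. Without the 8 h library, 293 of the 2059 heavy ends fell and 356 rose (14.2% and 17.3%, against 20.8% and 14.9% of all sites tested). With the header factors 1108 fell and 38 rose (53.8% and 1.85%, against 52.7% and 2.71% of all sites tested), both near those backgrounds. The median slope with these factors was -0.15 log2 per hour for heavy ends and -0.18 for all sites.

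The fastest falls among heavy ends were nearly complete within 2 h. The end on chromosome 10 at 110738791 (plus strand) had 39 and 47 counts in the controls, 1 count each at 1 and 2 h and 0 at 4 and 8 h, where 0 counts allow up to 0.705 and 1.08 TMM-scaled CPM against 5.62 and 5.80 in the controls (slope -3.02 ± 0.42 SE, edgeR adjusted p = 0.000224). With DESeq2 the slope was -1.02, and for the fastest 4 falls DESeq2 gave -0.99 to -1.11 where edgeR gave -1.53 to -3.02, so the size of such a slope depends on the tool. The half-life of this end in the authors' deposited table was 0.184 h, although 51.3% of its counts sat in fraction 12. The end on chromosome 5 at 103326842 (plus strand) had 59 and 31 counts in the controls and 5, 1, 0 and 0 at 1, 2, 4 and 8 h, with 57.9% in fraction 12. The ends on chromosome 7 at 52087203 (plus) and on chromosome 11 at 97606793 (minus) also had 0 counts at 4 and 8 h, with 52.3% and 50.4% in fraction 12. All 4 were modest in number, with 129 to 367 raw fraction counts.

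The fastest rises were highest at 8 h. The end on chromosome 9 at 72595563 (plus strand) had 16.9 and 4.69 TMM-scaled CPM in the controls and 3.08, 20.6, 50.5 and 178 at 1, 2, 4 and 8 h (slope of 0.56 ± 0.11 SE, with an edgeR adjusted p of 0.0112), with 74.2% in fraction 12. Control 1 lay far above control 2 for this end, and the 1 h value was below both. The end on chromosome 6 at 51411257 (minus strand) had 4.47 and 1.98 in the controls and 2.10, 4.12, 6.82 and 33.3 at 1, 2, 4 and 8 h. The other two were on chromosome 11 at 97023730 (minus) and chromosome 5 at 73018189 (minus). In all 4, control 1 was above control 2 and the 8 h value was the highest of the 6 libraries. Without the 8 h library, none of the 4 passed, with adjusted p of 0.0586 to 0.135, but their slopes were still positive. They were 0.62 (chromosome 9), 0.30 (chromosome 6), 0.35 (chromosome 11) and 0.65 (chromosome 5) without it, against 0.56, 0.44, 0.44 and 0.42 with all libraries. The end on chromosome 5 also missed the threshold without control 2, at 0.071. The authors' deposited table lists no half-life for these 4.

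The number of ends in the locus differed little between heavy and other ends. Of heavy ends 23.8% were alone in their locus, against 24.9% of other ends. Loci of 2 ends held 22.8% of heavy and 23.5% of other ends, loci of 3 ends 18.3% and 18.2%, loci of 4 ends 15.5% (Wilson 13.99 to 17.1) and 12.7% (12.2 to 13.3), and loci of 5 or more 19.6% and 20.6%. The median number of ends in the locus was 3 in both groups. Heavy ends came singly in 993 loci, while 268 loci held 2, 110 held 3, 36 held 4, 12 held 5, 4 held 6 and 2 held 7. The 432 loci with 2 or more held 1108 of the 2101.

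Ends of 1 locus agreed closely in the gradient. At 634 loci, 1310 heavy ends had another end with enough counts beside them. Over 2699 pairings of such a heavy end with each other end, the other end was heavy in 2072 (76.8%, Wilson 75.1 to 78.3). A pair of 2 heavy ends counts from each side, so these pairings come from 1663 pairs and the interval is too narrow. For ends that were not heavy, the other end was heavy in 627 of 17511 pairings (3.58%). Every end with enough counts was heavy at 349 of the 634 loci (55.05%). Between 2 ends of a locus with at least 1 heavy, the share in fraction 12 differed by a median of 4.82 percentage points, while the SD over all ends with enough counts was 16.5 points. The gap was larger than that between 2 ends of a locus with no heavy end, whose median was 2.53 points. Pairs with a heavy end were chosen by the share itself, and pairs of both kinds were not matched on share. The larger gap therefore does not show that ends of heavy loci agree less. Since the gradient was run once, this is a description, with no test.

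Ends that missed the cut at loci with a heavy end missed it narrowly. There were 443 of them, with a median share of 45.7% in fraction 12. Of these, 373 (84.2%) had at least 40%, against 14.9% of all other ends, 218 (49.2%) had the cut inside their 95% counting interval, and 9 were under 30%. Agreement was closest between ends under 100 nt apart. The other end was heavy in 86.2% of pairings under 100 nt, 75.3% at 100 to 500 nt, 73.2% at 500 to 1000 nt, 74.1% at 1000 to 2000 nt and 67.3% at 2000 nt or more. The median difference in share was 2.89, 4.91, 5.46, 6.21 and 6.90 points over the same distances.

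**Figure D4:**
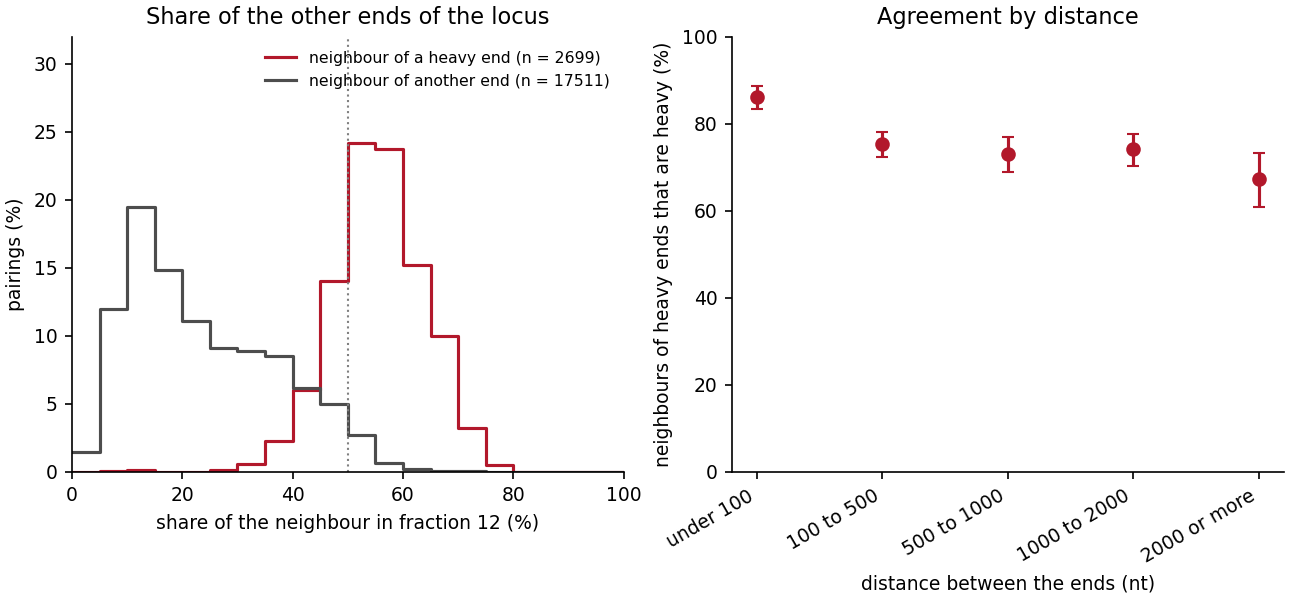
Left, share in fraction 12 of the other ends of a locus (x axis) for pairings that start from a heavy end or from another end, as percent of pairings, with the cut at 50% dotted; right, percent of the other ends that are heavy by distance from the heavy end, with Wilson 95% intervals. Neighbours of heavy ends cluster around the cut and above it, and the percent that is heavy is 86.2% under 100 nt and 67.3% at 2000 nt or more.

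The locus on chromosome 10 between 36853048 and 36855074 (minus strand, 2026 nt) had 7 annotated ends, and all 7 were heavy. Their shares in fraction 12 were 61.2%, 60.7%, 70.5%, 57.3%, 58.5%, 64.0% and 66.2%, in order of position, although their counts ran from 138 to 31138. The locus on chromosome 9 between 88346679 and 88350747 (minus strand) had 7 heavy ends of 8, at 52.4% to 71.5%, and the eighth had too few fraction counts, 55, with 67.3%. On chromosome 11 between 97021030 and 97023730 (minus strand), 6 of 7 ends were heavy at 62.0% to 73.0%, and the seventh had 46 counts and 80.7%. On chromosome X between 16262756 and 16264943 (plus strand), 6 of 6 ends were heavy at 59.3% to 67.5%. Each of the 5 that were tested there rose relative to the library, with slopes of 0.16 to 0.27 log2 per hour, against 20.8% of all sites tested that rose.

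At loci with 2 ends, heavy ends were proximal about as often as distal. Both ends had enough counts at 1117 such loci, of which 120 had both ends heavy and 56 had 1 heavy end. The heavy end was the distal one, farther from the coding region, in 25 of the 56 (44.6%, Wilson 32.4 to 57.6). The distal end had the higher share in fraction 12 at 87 of the 176 loci with a heavy end (49.4%, Wilson 42.1 to 56.8) and at 490 of the 941 with none (52.1%). Where both ends were heavy, the half-life in the authors' deposited table was shorter for the distal end at 52 of 115 loci (45.2%), and the medians were 3.50 h for distal and 3.63 h for proximal ends. The distal end was the more abundant in the controls at 78 of 120 loci (Wilson 56.1% to 72.9%). The counts for half-life and abundance were not set against loci with no heavy end, so they do not mark heavy ends out.

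Large disagreements were few. The 5 loci with the largest gap between a heavy end and another end differed by 27.6 to 48.1 points, and in all 5 the heavy end was the proximal one. On chromosome 10 (minus strand), the end at 80364108 had shares of 4.05%, 8.33%, 16.4%, 7.12%, 10.5% and 53.6% from fraction 0 to fraction 12, from 2512 counts. The end at 80362656, 1452 nt farther on, had 1.86%, 9.89%, 50.8%, 24.9%, 6.83% and 5.75%, from 8660 counts. These 2 ends also parted after actinomycin D, the heavy one falling (slope -0.11 ± 0.04 SE, edgeR adjusted p = 0.0281) and the other rising (slope 0.24 ± 0.05 SE, edgeR adjusted p = 0.00186). On chromosome 17 (plus strand), the end at 78773973 had 2.03% in fraction 0 and 70.8% in fraction 12, and the end at 78775930, 1957 nt farther on, had 31.6% and 35.0%. The others were on chromosome 8 at 109572608, with 59.9% and 11.8% at 109570799, on chromosome 4 at 116274214, with 72.2% and 30.9% at 116273656, and on chromosome 9 at 99380513, with 52.7% and 25.1% at 99378810. A locus built by distance can join neighbouring genes, and whether it did so at these 5 was not tested.

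Ends of a locus were then compared in decay, a measure the choice of members did not use. Each pair was the 2 most abundant ends of a locus, and 659 of the 3844 pairs fitted had at least 1 heavy end. The slope of the distal end differed from that of the proximal end in 37 of the 659 (5.61%), against a background of 4.27% over all pairs (edgeR quasi-likelihood F test of the isoform by hours term, adjusted p under 0.05). The distal end was lost faster in 25 (background 3.25%) and more slowly in 12 (background 1.01%). With both ends heavy 21 of 366 were called, and with 1 heavy end 16 of 293. The median difference in slope over the 659 was -0.01 log2 per hour, with quartiles of -0.11 and 0.05. The number of calls moved with the libraries used. Without the 1, 2, 4 or 8 h library 3, 29, 2 and 0 of the 659 were called, and without control 1 or 2 they were 14 and 1. Calls over all 3844 pairs fell too, to 40, 135, 18 and 0 without these time points and 66 and 14 without these controls. Without the 8 h library 97 of the 659 still had an unadjusted p under 0.05.

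The strongest of these differences was on chromosome 10 (minus strand), between a distal end at 62042995 and a proximal end at 62044861, 1866 nt apart and both heavy, at 60.01% and 52.6% in fraction 12. The distal end held 57.7% and 64.2% of their joint counts in the controls and 59.1%, 52.7%, 39.7% and 16.96% at 1, 2, 4 and 8 h (slope difference -0.37 ± 0.03 SE log2 per hour, edgeR adjusted p = 0.0065). Half-lives in the authors' deposited table were 1.90 h for the distal and 3.46 h for the proximal end. The opposite was seen on chromosome 7 (minus strand), with a distal end at 135841280 and a proximal end at 135841700, which had 70.8% and 71.0% in fraction 12. The distal end held 58.9% and 54.1% of the joint counts in the controls and 62.3%, 66.3%, 75.8% and 97.1% at 1, 2, 4 and 8 h, where the proximal end was down to 2 counts (slope difference 0.45 ± 0.07 SE, edgeR adjusted p = 0.0237). In this pair equal places in the gradient went with unequal decay. In the other 4 pairs named by p, on chromosomes 14, 2, 16 and 10, the distal end was lost faster, by -0.23 to -0.31 log2 per hour. All 6 missed the threshold without the 8 h library, with adjusted p of 0.122 to 0.247, while each difference kept its direction. Without that library it was -0.31 for the first pair, 0.31 for the pair on chromosome 7 and -0.22 to -0.43 for the other four.

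Opposite calls were rare all the same. Among pairs of heavy ends of a locus in which both ends were called in the fit over sites, the directions were opposite in 1 of 118 pairs under 100 nt apart (0.847%) and in 7 of 168 farther apart (4.17%). For pairs with neither end heavy these were 3 of 685 (0.438%) and 48 of 1426 (3.37%). The Wilson intervals of heavy and other pairs overlap, at 0.150 to 4.64 and 0.149 to 1.28 for the near pairs.

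Heavy ends were spread over the genome, and among the X chromosome and the autosomes their share was highest on X. On the X chromosome 103 of 474 ends with enough counts were heavy (21.7%, Wilson 18.3 to 25.7), against 1997 of 15808 on the autosomes (12.6%, Wilson 12.1 to 13.2). The autosomes ranged from 9.62% on chromosome 8 to 16.1% on chromosome 19 (Wilson 13.3 to 19.3), whose interval overlaps that of X. The gap was also there with loci counted once, at 22.0% of 323 loci on the X chromosome and 13.7% of 9885 autosomal loci, and for ends alone in their locus, at 23.6% and 11.96%. By loci, the X interval (17.8 to 26.8) overlapped those of some autosomes, such as chromosome 18 (12.3 to 21.1). With library totals the shares were 6.33% and 2.73%, and with a cut at 60% they were 8.65% and 3.76%. Heavy ends of the X chromosome were less abundant, with a median of 18.0 control CPM against 28.6 for autosomal heavy ends. Their median half-life in the authors' deposited table was 4.23 h against 3.41 h, but X-linked ends had long half-lives in general, with a median of 4.22 h against 2.89 h for autosomal ends with enough counts. Of 102 X-linked heavy ends tested, 11 fell (10.8%, background 28.2%) and 28 rose (27.5%, background 20.8%). These backgrounds are over all chromosomes, and the calls were not set against those of other X-linked ends. This comparison was chosen after seeing the data, and as the rule used the gradient values the share of heavy ends was not tested.

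**Figure D5:**
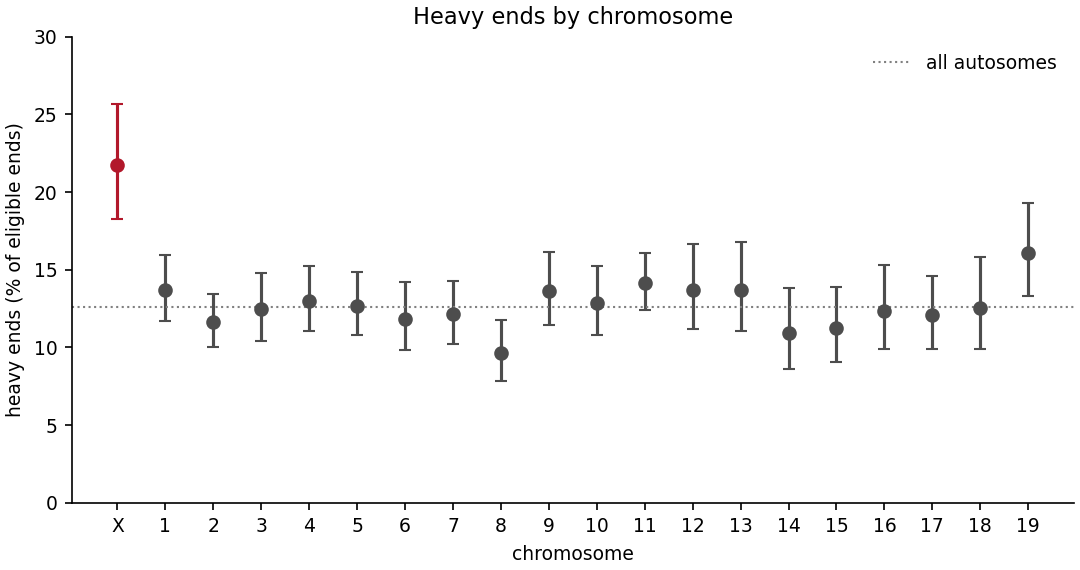
Heavy ends as percent of the ends with enough fraction counts (y axis) on the X chromosome and on each autosome (x axis), with Wilson 95% intervals; the dotted line is the value over all autosomes. The X chromosome is at 21.7% and the autosomes lie between 9.62% and 16.1%.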

How the data were processed

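The 12 2P-Seq libraries of 14 samples were used: 2 controls, 4 after actinomycin D and 6 gradient fractions. The 2 3P-Seq samples were not analysed here. The authors' deposited table holds raw counts per poly(A) site with mm9 positions and 1 scaling factor per library, per the file headers. Reads were aligned by the authors with Bowtie (submitters' processing notes); the version is not stated in the sources at hand. Other deposited values per site were the half-life and ribosomes per mRNA, computed by the authors. The headers do not state the unit of the half-life. It was read in hours because its rate equalled an exponential fit on hours plus 0.1 per h, within 0.001, for 1370 of 1376 heavy ends with at least 20 counts in each library. That offset shortens every half-life, the long ones most, and leaves their order, and values stop at 50 h. Per-sample columns left unused numbered 0.

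Fraction columns were matched to fraction labels in ascending order, an assumption. Fraction counts were divided by the header factors, which give fraction 12 24.0% of all scaled counts. Its counting error followed the delta method. CPM of single controls and of fractions uses library totals unless TMM-scaled CPM is named.

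Decay was fitted with edgeR 4.0.16 in R 4.3.3 (robust quasi-likelihood F test, TMM, Benjamini-Hochberg over all sites or pairs), with controls at 0 h. Sites needed 60 counts over the 6 libraries, as did each end of a pair, whose model had terms for library, isoform and isoform by hours. Scripts were tested on simulated data. Alternatives were DESeq2 1.42.0, other scalings, filters, cuts and linkage distances, and each library left out.

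The members, classes and lists were chosen with earlier results of these data known. Ends were named by rule: the 8 most abundant, the 6 highest shares, the 4 fastest called falls and rises, 3 on each side of the cut, the 4 loci with the most heavy ends, the 5 largest gaps and up to 6 pairs by p. Strata of abundance, opposite calls and the chromosomes were added after seeing the data. Coding lengths, gene lists, cell type markers and sequences could not be used without an mm9 annotation, and positions were not converted between builds.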

Additional observations from a re-analysis of the deposited data

How the results depend on the processing

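Membership hung on the scaling and the cut. Against 2101 heavy ends, library totals gave 462, a cut at 0.4 gave 4208 and a cut at 0.6 gave 636, and leaving out 1 of the 5 lighter fractions gave 2484 to 3944, since the share is then taken of fewer counts. Minimums of 50 or 300 fraction counts stayed within 1.5 times. Of falling heavy ends, 516 in the report (25.1%, against 28.2% of all sites tested), there were 1108 with the header factors (53.8%, against 52.7%). Membership by library totals gave 51 of 458 tested (11.1%) and the cut at 0.6 gave 78 of 634 (12.3%), both with fewer members. With 1 decay library left out there were 293 to 492, or 14.2% to 23.9%, against 20.8% to 27.7% of all sites tested. Of rising ones, 476 in the report (23.1%, against 20.8% of all sites tested), there were 38, 151 and 201 in the same settings (1.85%, 33.0% and 31.7%). The share over all sites was 2.71% with the header factors and 20.8% for both changes of membership. With 1 library left out there were 356 to 485, or 17.3% to 23.6%, against 14.9% to 21.1% of all sites tested. DESeq2, RLE factors and the other count minimums kept both counts within 1.5 times, although DESeq2 gave smaller slopes for the fastest falls. Called pairs with a heavy end, 37 of 659 in the report, were 65 with DESeq2 and 0 to 29 with 1 library left out. Over all 3844 pairs these were 164, 333 and 0 to 135. The median half-life of 3.44 h was 4.32 h with membership by library totals and 4.27 h at 0.6, both chosen after seeing the data. Ends alone in their locus, 23.8%, were 31.5% with a linkage of 1000 nt and 18.3% with 5000 nt. Agreement, 76.8%, was 74.2% with 5000 nt, 79.0% with at least 300 counts at the other end and 59.6% with membership by library totals. With the header factors the slopes of 5 abundant ends reversed, to -0.0053 (chromosome 5 at 143664802), -0.0099 (chromosome 7 at 54110995), -0.061 (chromosome 3 at 88125687), -0.018 (chromosome 6 at 4491008) and -0.024 (chromosome 8 at 87365989). Unless stated, the cause was not tested.

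No paired analysis was possible because only the controls carry replicate numbers and each time point and fraction has 1 library. With 4 residual degrees of freedom, 42 heavy ends had too few decay counts for a test. Without a repeat of the gradient, shares carry counting error alone.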

Other observations

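The only opposite calls among heavy ends under 100 nt apart were at the locus with 7 heavy ends on chromosome 10, chosen after its values were seen. Its most abundant end, at 36854626 (minus strand, mm9), had 240 and 281 TMM-scaled CPM in the controls and 374, 210, 142 and 90.0 at 1, 2, 4 and 8 h (slope of -0.22 ± 0.04 SE log2 per hour, with an edgeR adjusted p of 0.00136). The end 25 nt upstream, at 36854651, had 40.9 and 18.6 in the controls and 20.2, 31.9, 59.0 and 83.5 at 1, 2, 4 and 8 h (slope of 0.22 ± 0.05 SE, with an edgeR adjusted p of 0.00503). Control 1 stood above control 2 at the second end and below it at the first. In the gradient the ends were alike, with 57.3% and 58.5% in fraction 12, and both had little in fraction 1, 1.97% and 1.79%. What sets them apart was not tested.

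Heavy ends lay on the plus strand in 991 of 2101 cases (47.2%, Wilson 45.04 to 49.3) and other ends in 7275 of 14182 (51.3%, Wilson 50.5 to 52.1). The Y chromosome had 1 end with enough fraction counts, and it was heavy, with 56.3% in fraction 12.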
